A study of Mus musculus with 8 samples.

Results

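Chemoattractant receptors are the cell surface receptors that steer neutrophils toward infected or damaged tissue. Of the 10 receptor genes of interest, Fpr1, Fpr2, C5ar1, C5ar2, Cxcr2, Cxcr4, Ltb4r1, Ptafr, Ccr1 and Cmklr1, 9 had a probe set that carried their symbol alone on the array, and each of these had 1 such probe set. No probe set carried Fpr1 as its single symbol, and Fpr1 was not analysed here. The 9 probe sets were taken from 23521 with a single gene symbol, and all 9 passed the filter on dim probe sets, a log2 value above 5.45 on at least 2 arrays.

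The arrays, Affymetrix Mouse Gene 2.0 ST, read messenger RNA of neutrophils recruited to air pouches, which are subcutaneous cavities raised in mice, after injection of lipopolysaccharide (LPS), a component of bacterial outer membranes. All groups received LPS, and each array read 1 pool of cells from 5 mice, enriched by negative selection and nearly all Ly6G positive by flow cytometry per the design text. The Arf6 conditional knockout (cKO), of genotype flox+/+Cre+/+, had 3 arrays, the flox control (flox+/+Cre-/-, floxed Arf6 without Cre) had 3, and the Cre control (flox-/-Cre+/+, Cre without the floxed allele) had 2. The sources used here do not state the promoter that drives Cre or the age of the mice. Arf6 is a small GTPase of membrane traffic, and the series title asks about its part in neutrophil glycolysis and effector functions.

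Values are log2 probe set intensities after Robust Multiarray Analysis. Array medians lay between 5.41 and 5.48. Arf6 itself read 6.06 to 6.49 in the cKO and 7.68 to 8.20 in the 5 control arrays, which follows the genotype labels, whereas the source field of each sample names another genotype. The pools stood apart in sex-linked transcripts at 2 places. Xist, transcribed from the inactive X, read 5.46 in replicate 1 of the flox control and 7.84 or more elsewhere, and the Y-linked Eif2s3y read 4.08 in cKO replicate 1 and 8.66 or more elsewhere. Results that rest on these pools are given with and without them. The neutrophil markers Ly6g, S100a8, S100a9, Csf3r, Mmp8, Mmp9, Retnlg, Ltf and Camp had a summed signal (linear scale) of 56558 to 58036 (flox control), 52750 to 57129 (cKO) and 50608 to 51122 (Cre control). Markers of other cells were also present. The 11 macrophage and monocyte markers were all above 5.45 on every array, with summed signals of 16212 to 22831, 17511 to 20331 and 19691 to 19750 in the same order of groups. Their mean log2 levels ran from 6.16 (Mertk) to 12.51 (Cd68), and a linear sum weights the highest of them most. The 5 dendritic cell markers summed to 2326 to 3068, 3197 to 4096 and 3590 to 3843, and the 8 T and NK cell markers to 494 to 557, 668 to 747 and 745 to 870. The 5 eosinophil markers summed to 569 to 866, 724 to 1217 and 754 to 1380, with 3 of them above 5.45 on every array and Epx below it on every array. The 4 fibroblast markers summed to 427 to 707, 357 to 905 and 294 to 820, with Col1a1 and Col1a2 above 5.45 on every array. Of the 4 B cell markers, Cd79a and Ms4a1 were below 5.45 on every array and Cd79b was above it on every array. Of the 5 mast cell and basophil markers, Cpa3, Mcpt4, Mcpt8 and Ms4a2 were below it on every array. In bulk samples such as these, fewer cells of a type and less RNA per cell cannot be told apart.

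Most of these receptors signal through the inhibitory G protein family to phosphoinositide 3-kinase gamma, Rac and the actin cytoskeleton. After a ligand binds, receptor kinases and beta-arrestins turn the receptor off and carry it into endosomes, a route in which Arf6 is known to take part. Formyl peptides and complement fragment C5a arise at the site of infection, whereas chemokines and leukotriene B4 relay the signal between cells. Mature neutrophils carry high CXCR2, which draws them out of the marrow. CXCR4 holds neutrophils in the marrow and rises as they age.

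The DNA before the start sites of the receptors whose levels the results turn on is printed to show which letters of known myeloid motifs they hold. Sequences are from RefSeq on GRCm38.p6, run 5′ to 3′ on the gene's own strand and end 1 base before the annotated start, with motif matches on either strand in capitals.
C5ar1, chr7:16259339-16259588, minus strand: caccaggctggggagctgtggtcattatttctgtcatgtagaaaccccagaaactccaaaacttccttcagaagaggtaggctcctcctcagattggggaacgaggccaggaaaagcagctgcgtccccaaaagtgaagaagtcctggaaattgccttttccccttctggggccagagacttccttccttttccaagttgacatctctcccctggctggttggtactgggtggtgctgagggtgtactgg
C5ar2, first start, chr7:16244155-16244404, minus strand: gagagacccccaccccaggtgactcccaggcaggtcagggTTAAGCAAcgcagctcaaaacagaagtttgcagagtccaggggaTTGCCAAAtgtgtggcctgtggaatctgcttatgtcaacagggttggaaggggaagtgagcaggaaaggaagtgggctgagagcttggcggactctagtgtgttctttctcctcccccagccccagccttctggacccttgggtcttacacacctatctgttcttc
C5ar2, second start, chr7:16242332-16242581, minus strand: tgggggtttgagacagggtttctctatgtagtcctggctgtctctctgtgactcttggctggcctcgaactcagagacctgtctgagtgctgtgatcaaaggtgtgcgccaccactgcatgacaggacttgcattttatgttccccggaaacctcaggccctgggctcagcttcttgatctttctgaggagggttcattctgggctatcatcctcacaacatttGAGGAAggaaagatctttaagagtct
Fpr2, chr17:17887574-17887823, plus strand: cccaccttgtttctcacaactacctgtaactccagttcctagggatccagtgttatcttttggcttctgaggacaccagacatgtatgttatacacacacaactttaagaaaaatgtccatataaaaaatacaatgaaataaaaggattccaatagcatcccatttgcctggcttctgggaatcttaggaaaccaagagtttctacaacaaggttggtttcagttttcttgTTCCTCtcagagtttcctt
Ltb4r1, chr14:55765712-55765961, plus strand: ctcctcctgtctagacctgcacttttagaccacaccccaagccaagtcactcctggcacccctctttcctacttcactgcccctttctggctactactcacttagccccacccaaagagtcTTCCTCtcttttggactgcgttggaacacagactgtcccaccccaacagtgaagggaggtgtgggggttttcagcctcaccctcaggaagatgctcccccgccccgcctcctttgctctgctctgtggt
Cmklr1, chr5:113643604-113643853, minus strand: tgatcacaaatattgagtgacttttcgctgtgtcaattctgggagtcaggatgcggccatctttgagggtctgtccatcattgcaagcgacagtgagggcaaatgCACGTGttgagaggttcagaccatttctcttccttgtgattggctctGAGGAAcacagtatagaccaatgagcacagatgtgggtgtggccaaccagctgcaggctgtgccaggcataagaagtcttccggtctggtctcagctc
The motifs searched were the PU-box GAGGAA, bound by the myeloid factor PU.1, the C/EBP motif TTGCNNAA, the AP-1 motif TGANTCA, the hypoxia-inducible factor core ACGTG, and the NF-kB consensus. In the printed windows of Fpr2 and Ltb4r1 the capitals mark the PU-box on the opposite strand, and in the second C5ar2 window they mark it on the gene's strand. The first C5ar2 window holds 2 C/EBP matches, and the Cmklr1 window holds a PU-box and a palindrome in which the ACGTG core matches on both strands. Over all 10 receptor genes, which have 11 annotated starts in the table, 7 windows held a PU-box, in Fpr2, C5ar2, Cxcr2, Ltb4r1, Ptafr, Ccr1 and Cmklr1. Of 32851 windows of the same length before all RefSeq starts, 23.3% held it. A C/EBP match stood in 1 of the 11 windows (9.56% of all windows) and the ACGTG core in 1 (16.6%). AP-1 and NF-kB letters stood in none of the 11 (6.75% and 3.9% of all windows). A match is a description of the letters only.

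None of the 9 receptors passed the threshold, an adjusted p of 0.05 by limma over 14002 probe sets, in any of 4 comparisons: cKO minus the mean of both controls, cKO minus each control group, and the Cre control minus the flox control. Of all probe sets the threshold called 0.00714% with both controls, 0.0429% with the flox control alone, 0.0714% with the Cre control alone and 0.486% between control groups. These comparisons share arrays. At an unadjusted p under 0.05, C5ar2 and Cmklr1 were counted against both controls (9.52% of all probe sets). With the flox control alone they were again C5ar2 and Cmklr1 (8.26%), with the Cre control alone C5ar2, Cmklr1 and Ltb4r1 (13.5%), and between control groups Ltb4r1 (14.7%). Against both controls 5 receptors read higher and 4 lower, with a median log2 fold change of 0.08, beside 0.01 over all probe sets, of which 53.4% were higher. In 4 of the 9 receptors the 3 cKO arrays lay beyond all 5 control arrays, which held for 4.36% of all probe sets. These were C5ar1, C5ar2 and Fpr2 below the controls (2.25% of all probe sets) and Cmklr1 above them (2.11%). With the flox control alone Ccr1 joined them, for 5 of 9 (12.2% of all probe sets). With the Cre control alone 6 of 9 did not overlap (34.4%), C5ar1, C5ar2, Fpr2, Cmklr1, Cxcr4 and Ltb4r1. Between control groups 3 of 9 did not overlap (32.7%), Cxcr2, Ltb4r1 and Ptafr. A share of members near that of all probe sets, as between the control groups, is not a result about the receptors.

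**Figure D1:**
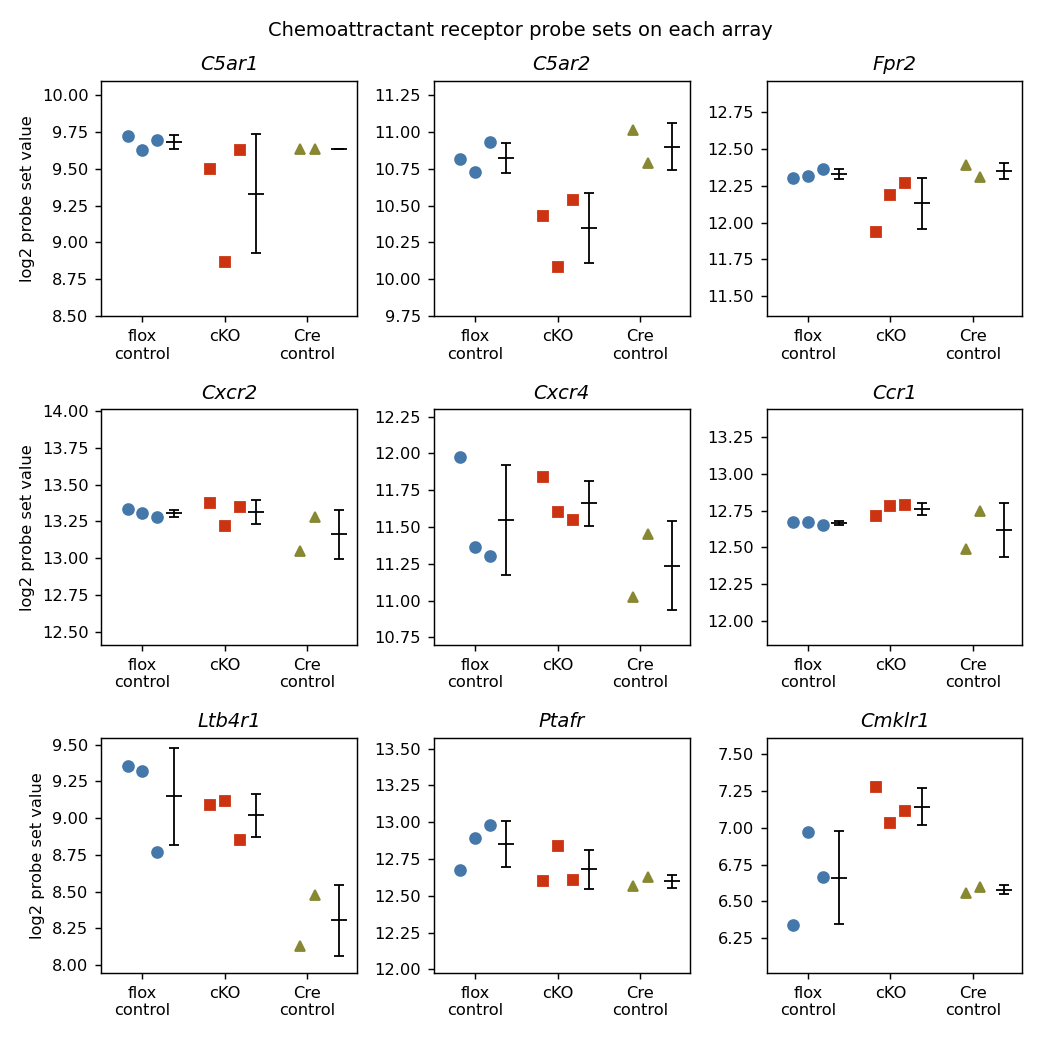
Log2 probe set value (vertical axis, 1.6 log2 units in each panel) of the 9 receptors by group (horizontal axis), with 1 point per array and a bar for the mean and SD of each group. The cKO arrays of C5ar2 lie below all 5 control arrays, those of Cmklr1 lie above them, and the Cre controls of Ltb4r1 lie below all other arrays.

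The receptors for complement fragment C5a were the lowest of the 9 in the cKO relative to the mean of both controls. C5ar2 encodes the second C5a receptor, which does not couple to G proteins and modulates C5ar1. C5ar2 (gene identifier 319430, chromosome 7) read 10.43, 10.08 and 10.54 on the cKO arrays, 10.82, 10.73 and 10.93 on the flox control arrays, and 11.01 and 10.79 on the Cre control arrays. All 3 cKO arrays lay below all 5 controls, with a gap of 0.19 between the highest cKO and the lowest control array. The difference from both controls was -0.51 (log2, SE 0.13, 95% interval -0.80 to -0.22, adjusted p = 0.334 by limma), or 1.43-fold lower. It was -0.47 (SE 0.14, adjusted p = 0.413) against the flox control and -0.55 (SE 0.16, adjusted p = 0.217) against the Cre control. The control groups lay 0.08 apart (SE 0.16), within their spread. Without cKO replicate 2, the lowest array, the difference from both controls was -0.38, and without the 2 pools that stood apart in sex-linked transcripts it was -0.56.

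C5ar1, the G protein-coupled C5a receptor that drives neutrophil chemotaxis, pointed the same way with less separation. C5ar1 (gene identifier 12273, chromosome 7) read 9.50, 8.87 and 9.63 on the cKO arrays, 9.72, 9.63 and 9.69 on the flox control arrays, and 9.64 on each Cre control array. A single pool, cKO replicate 2, was far below the rest, and cKO replicate 3 lay only 0.0039 below the lowest control array. The difference from both controls was -0.33 (SE 0.16, 95% interval -0.69 to 0.04, adjusted p = 0.574). Without cKO replicate 2 it was -0.10 (adjusted p = 0.972). With quantile normalization, and with arrays centred on their medians, the cKO overlapped the 5 controls in C5ar1. The same pool was the lowest of all 8 arrays for both C5a receptors.

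C5ar1 and C5ar2 are adjacent on chromosome 7 in the RefSeq annotation, with no protein-coding gene between them. Of the 3 nearest protein-coding genes on each side, chosen after the receptor values were seen, 5 were tested, and their differences from both controls ran from -0.17 (SE 0.12) for the apoptosis gene Bbc3 to 0.18 (SE 0.15) for the homeobox gene Meis3. In none of the 5 did the cKO lie beyond all controls, where 4.36% of all probe sets did. The cKO lay below all flox controls in Bbc3 (12.2% of all probe sets did not overlap there). It lay above both Cre controls in Dhx34 (34.4% did not overlap there). The C5a precursor itself is encoded by Hc, which had group means of 6.68 (cKO), 7.14 (flox control) and 7.35 (Cre control). Its difference from both controls was -0.56 (SE 0.22, adjusted p = 0.471), and its arrays overlapped.

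Fpr2 encodes a formyl peptide receptor that also binds serum amyloid A, annexin A1 and cathelicidin fragments. Fpr2 (gene identifier 14289, chromosome 17) read 11.93, 12.19 and 12.27 on the cKO arrays, 12.30, 12.32 and 12.37 on the flox control arrays, and 12.39 and 12.31 on the Cre control arrays. The cKO arrays were the 3 lowest, with a gap of 0.034 to the lowest control. The 5 controls were close together (SD 0.04), whereas the cKO spread was wider (SD 0.17, n = 3). Relative to both controls Fpr2 read -0.21 (SE 0.11, 95% interval -0.45 to 0.03, adjusted p = 0.586), and -0.11 without cKO replicate 1, one of the pools with distinct sex-linked transcripts. With quantile normalization the cKO and control arrays overlapped. The family holds close copies, among them Fpr-rs3, Fpr-rs4 and Fpr-rs6, and which bases the Fpr2 probe set reads was not analysed here. The probe sets of these 3 copies had mean log2 levels of 3.31, 3.68 and 2.82, each above 5.45 on 0 of 8 arrays. The mean level of Fpr2 was 12.26. Of the Fpr2 ligands, Saa3, an acute phase serum amyloid, read -0.87 against both controls (SE 0.26, adjusted p = 0.369), with all cKO arrays below all controls. Anxa1, which encodes annexin A1, read -0.07 (SE 0.14), and Camp, which encodes the cathelicidin, read 0.01 (SE 0.29), both with overlap. Camp was above 5.45 on only 5 arrays, and its Cre controls lay below all flox controls. The cKO read -0.41 (SE 0.32) for Camp against the flox control and 0.43 (SE 0.36) against the Cre control.

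Among the chemokine receptors, Cxcr2, the receptor for Cxcl1, Cxcl2 and Cxcl5, had group means within 0.15 of each other. Cxcr2 (gene identifier 12765, chromosome 1) read 13.37, 13.22 and 13.34 on the cKO arrays, 13.33, 13.31 and 13.28 on the flox control arrays, and 13.05 and 13.28 on the Cre control arrays. The groups overlapped except that both Cre controls were below the flox controls, by 0.0047. This gap was 0.0095 with arrays centred on their medians, and with quantile normalization the 2 control groups overlapped. The highest value of any probe set was 14.10 to 14.17 on each array, so Cxcr2 was read near the top of the scale. Against both controls the cKO differed by 0.08 (SE 0.10, 95% interval -0.15 to 0.30, adjusted p = 0.863).

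Ccr1, the receptor for Ccl3, Ccl5, Ccl6 and Ccl9, had the narrowest range of the 9 over the arrays, 0.30. Ccr1 (gene identifier 12768, chromosome 9) read 12.71, 12.78 and 12.79 on the cKO arrays, 12.67, 12.68 and 12.65 on the flox control arrays, and 12.49 and 12.75 on the Cre control arrays. The cKO arrays were above all flox controls by 0.035 but overlapped the Cre controls. Against both controls the cKO differed by 0.12 (SE 0.10, 95% interval -0.11 to 0.34, adjusted p = 0.772). Without Cre control replicate 1 this was 0.05, and without Cre control replicate 2 it was 0.18.

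Cxcr4, the receptor for the marrow retention chemokine Cxcl12, had group means within 0.42 of each other and a range of 0.95 over the arrays. Cxcr4 (gene identifier 12767, chromosome 1) read 11.84, 11.60 and 11.55 on the cKO arrays, 11.97, 11.36 and 11.30 on the flox control arrays, and 11.02 and 11.45 on the Cre control arrays. Its highest values were those of flox control replicate 1 and cKO replicate 1, the pools with distinct sex-linked transcripts. The difference from both controls was 0.27 (SE 0.18, 95% interval -0.13 to 0.66, adjusted p = 0.692), 0.29 without those 2 pools and 0.16 without Cre control replicate 1. Against the Cre control it was 0.42 (SE 0.22, adjusted p = 0.443), with no overlap, and 0.21 without Cre control replicate 1, the lowest array, or 0.64 without Cre control replicate 2.

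**Figure D2:**
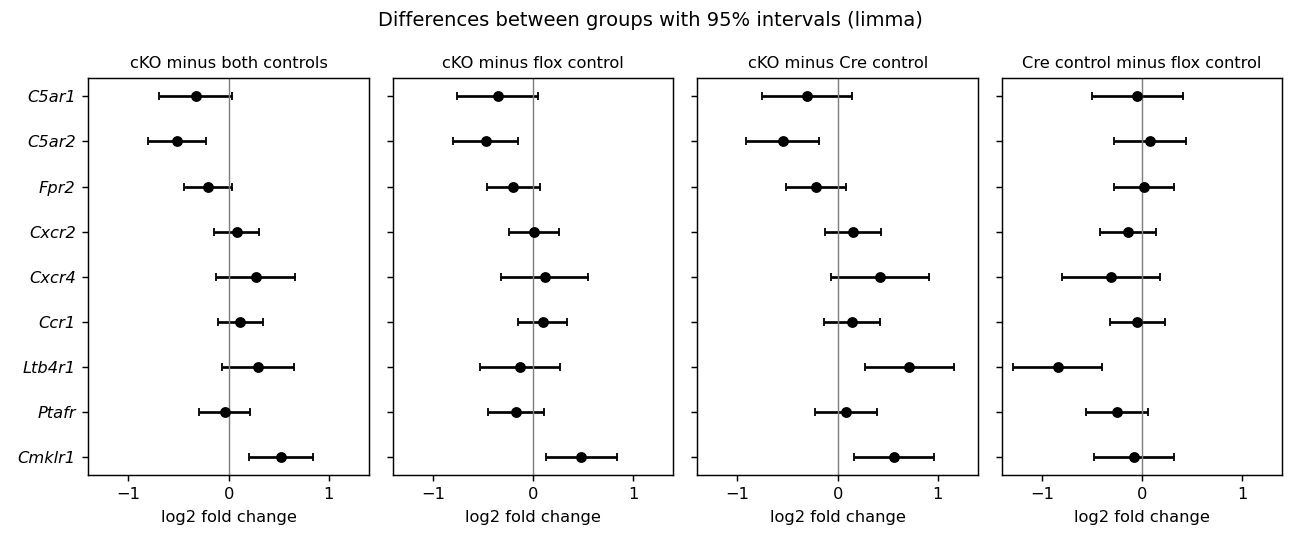
Log2 fold change (horizontal axis) of the 9 receptors (vertical axis) in 4 comparisons, with 95% intervals of the limma fit as bars. The intervals of C5ar2 and Cmklr1 lie to one side of 0 in all 3 comparisons of the cKO, and those of Ltb4r1 do so for cKO minus Cre control and Cre control minus flox control, although none passed after adjustment.

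Of the lipid mediator receptors, Ltb4r1, the high affinity receptor for leukotriene B4, had the widest difference of any member, and it lay between the control groups. Ltb4r1 (gene identifier 16995, chromosome 14) read 9.36, 9.32 and 8.77 on the flox control arrays, 9.09, 9.11 and 8.85 on the cKO arrays, and 8.13 and 8.47 on the Cre control arrays. Both Cre controls were below all other arrays, and the cKO lay within the range of the flox control. The Cre control was 1.80-fold lower than the flox control (log2 -0.84, SE 0.20, 95% interval -1.29 to -0.40, adjusted p = 0.107). This difference passed without flox control replicate 3 (-1.03, adjusted p = 0.0342) and with array weights (-0.94, adjusted p = 0.0135), and adjusted p over the alternatives ran from 0.0135 to 0.544. With flox control replicate 1 and cKO replicate 1 left out it was -0.74 (adjusted p = 0.245). The cKO was 0.71 above the Cre control (SE 0.20, adjusted p = 0.204) and 0.13 below the flox control (log2 -0.13, SE 0.18, 95% interval -0.53 to 0.27, adjusted p = 0.899). On leaving out each array the latter ran from -0.32 (without flox control replicate 3) to -0.03 (without flox control replicate 1). Against the mean of both controls the cKO read 0.29 (SE 0.16, adjusted p = 0.616), a mean that lies between control groups that do not overlap.

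Neutrophil markers also read mostly lower in the Cre control. Of the 9 tested, 8 were lower in the Cre control (median log2 fold change -0.29), and in 7 the Cre controls lay below all flox controls, which held for 17.4% of all probe sets. Of the 11 macrophage and monocyte markers 8 were higher in the Cre control (median 0.21), 4 of them with no overlap (15.3% of all probe sets). Also higher there were 5 of 6 T and NK cell markers (median 0.76), 4 of 4 eosinophil markers tested (median 0.62) and 4 of 5 dendritic cell markers (median 0.43). All 4 eosinophil markers overlapped between the control groups. Other lists read lower: 3 of 3 fibroblast, 2 of 2 B cell, 1 of 1 mast cell and basophil, and 2 of 3 erythroid and platelet markers tested. Of all probe sets 49.2% were higher in the Cre control. The part of these markers in the Ltb4r1 difference was not tested.

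Ptafr, the receptor for platelet-activating factor, had group means within 0.25 of each other. Ptafr (gene identifier 19204, chromosome 4) read 12.60, 12.84 and 12.61 on the cKO arrays, 12.68, 12.89 and 12.98 on the flox control arrays, and 12.57 and 12.63 on the Cre control arrays. Both Cre controls were below all flox controls, with a gap of 0.047, and the cKO overlapped both groups. The difference of the cKO from both controls was -0.04 (SE 0.11, 95% interval -0.29 to 0.21, adjusted p = 0.951), and that of the Cre control from the flox control was -0.25 (SE 0.14, adjusted p = 0.441).

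Cmklr1, the receptor for chemerin and best known from macrophages, dendritic cells and NK cells, was the member that read highest in the cKO relative to the mean of both controls. Cmklr1 (gene identifier 14747, chromosome 5) read 7.28, 7.03 and 7.12 on the cKO arrays, 6.34, 6.97 and 6.67 on the flox control arrays, and 6.56 and 6.60 on the Cre control arrays. All 3 cKO arrays lay above all 5 controls, with a gap of 0.060, and flox control replicate 2 came nearest. The difference from both controls was 0.52 (SE 0.14, 95% interval 0.20 to 0.85, adjusted p = 0.345), or 1.44-fold higher. It was 0.48 (SE 0.16, adjusted p = 0.472) against the flox control and 0.56 (SE 0.18, adjusted p = 0.241) against the Cre control, and the Cre control minus the flox control was -0.08 (SE 0.18). With flox control replicate 1 and cKO replicate 1 left out, which held its lowest and highest values, the difference was 0.38 from both controls and 0.25 from the flox control.

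Markers of the cells best known for Cmklr1 did not all run with it. Against both controls 5 of the 11 macrophage and monocyte markers were higher and 6 lower (median -0.09). Of the 5 dendritic cell markers 4 were higher (median 0.22), and of the 6 T and NK cell markers tested 3 were higher (median 0.0037). Against the flox control alone the medians were 0.06, 0.32 and 0.34, and against the Cre control alone they were -0.30, -0.10 and -0.22. Their part in the Cmklr1 difference was not tested.

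**Figure D3:**
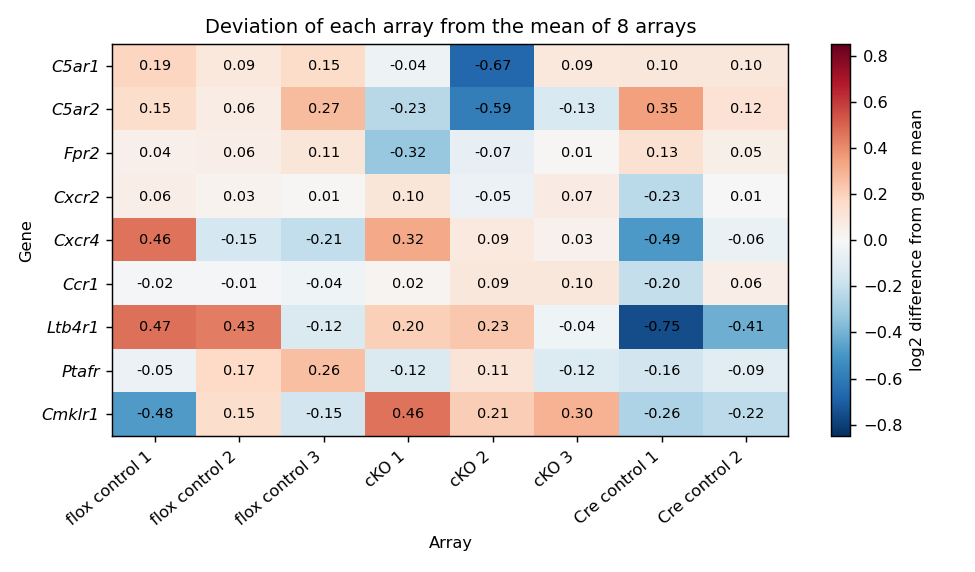
Difference of each array (horizontal axis) from the gene's mean over 8 arrays, in log2 units given by colour and number, for the 9 receptors (vertical axis). Cre control replicate 1 stands low for 5 receptors, and cKO replicate 2 stands low for C5ar1 (-0.67) and C5ar2 (-0.59).

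The array that read highest or lowest differed from receptor to receptor. Cre control replicate 1 held the lowest value of 5 receptors, Ccr1, Cxcr2, Cxcr4, Ltb4r1 and Ptafr, and the highest value of C5ar2 and Fpr2. Its partner, Cre control replicate 2, held neither the highest nor the lowest value of any. Flox control replicate 1 held the highest value of C5ar1, Cxcr4 and Ltb4r1 and the lowest of Cmklr1. The order of the group means also differed. In C5ar1, C5ar2 and Fpr2 the cKO had the lowest mean and the controls were close to each other. In the other 6 the Cre control had the lowest mean. Of these, Cxcr2, Cxcr4, Ltb4r1 and Ptafr had overlapping cKO and flox control arrays.

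Other genes of chemoattractant sensing are given by list, and none of the tested genes in these lists passed in any of the 4 comparisons. Of 39 further chemoattractant receptors 22 were tested, with 8 higher and 14 lower in the cKO against both controls (median -0.06), and 0 were at an unadjusted p under 0.05 (9.52% of all probe sets). In this list Cxcr1, a receptor for CXC chemokines, was 0.98 above the flox control (SE 0.30, adjusted p = 0.431), with no overlap. The Cre control was also 0.91 above the flox control (SE 0.34), with no overlap, and the cKO minus the Cre control was 0.06 (SE 0.34). Ccr7, which guides cells to lymph nodes, read 0.73 against the flox control (SE 0.26) and 1.00 for the Cre control minus the flox control (SE 0.29, adjusted p = 0.153). C3ar1, the receptor for complement fragment C3a, stood 0.39 (SE 0.21) above the flox control in the cKO and 0.84 (SE 0.24) above it in the Cre control.

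Ligands and the enzymes that make them were divided, with 12 higher and 10 lower of 22 tested against both controls (median 0.04), and 2 were at an unadjusted p under 0.05 (9.52% of all probe sets), Saa3 and Hc. Lta4h, which completes leukotriene B4 synthesis, read 0.38 (SE 0.18, adjusted p = 0.55). The CXCR2 ligand Cxcl3 had means of 12.81 (cKO), 12.81 (flox control) and 12.04 (Cre control), and the Cre control minus the flox control was -0.78 (SE 0.23, adjusted p = 0.153). The CXCR2 ligand Cxcl1 read -0.80 in that comparison (SE 0.23).

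Genes of G protein signalling downstream of the receptors numbered 27 tested, with 16 higher and 11 lower against both controls (median 0.05), and 4 were at an unadjusted p under 0.05 (9.52% of all probe sets). Pik3r6, a regulatory subunit of phosphoinositide 3-kinase gamma, read -0.68 against both controls (SE 0.24, adjusted p = 0.423), and Pik3cd, the delta catalytic subunit, -0.52 (SE 0.19). Cyth1, an exchange factor for ARF proteins, read 1.02 (SE 0.36) and the integrin activator Fermt3 0.35 (SE 0.13). In each of these 4 the cKO overlapped the controls. In Cyth1 and Fermt3 the Cre controls lay below all flox controls, by -0.74 (SE 0.44) and -0.37 (SE 0.16) in the group means. Against the flox control alone the cKO read 0.64 (SE 0.39) for Cyth1 and 0.16 (SE 0.14) for Fermt3, both with overlap.

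Genes that turn off or move receptors numbered 29 tested, with 19 higher and 10 lower against both controls (median 0.05), and 1 was at an unadjusted p under 0.05 (9.52% of all probe sets). The smallest p was that of Arrb2, which encodes beta-arrestin 2, an adaptor of receptor internalisation. Its group means were 9.45 (flox control), 9.38 (cKO) and 8.69 (Cre control). The Cre control stood apart, at -0.76 from the flox control (SE 0.14, adjusted p = 0.0524), and the cKO was 0.69 above it (SE 0.14, adjusted p = 0.12). Dnm2, the dynamin that cuts endocytic vesicles free, was -0.39 for the Cre control minus the flox control (SE 0.14). In both genes, and in Ltb4r1, the cKO overlapped the flox control.

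The genes with the array profiles most like those of the 3 receptors whose group means span the widest range were found by the root mean square difference of gene-centred log2 values over 8 arrays, among 11936 genes. For Ltb4r1 they were Bloc1s3 (0.10), Mtus1 (0.11) and Arhgap9 (0.11), where Ltb4r1 deviated from its own mean by 0.40 on the same measure. For Cmklr1 they were Coa6 (0.11), Ppp2r5d (0.12) and Tnik (0.12), against 0.30. For C5ar2 they were Mthfsl (0.07), Spata13 (0.09) and Pgs1 (0.09), against 0.28. These are the closest of many genes and are given as a description.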

How the data were processed

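Per the series design text, the authors subtracted background and normalized probe set intensities by Robust Multiarray Analysis in Affymetrix Expression Console, and the deposited values are on a log2 scale, as their range shows. The version of that software and the genome build were, for these arrays, not given in the sources used here. Of 3 pools per genotype that the design text states, 2 were analysed here for the Cre control. The labels' protocols and the design text name different RNA isolation and labelling reagents.

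Of 34472 probe sets, 23521 had a single gene symbol, 1814 several and 9137 none. Symbols were updated by gene identifier with RefSeq GRCm38.p6 (23328 matched). Probe sets above the median of all values (5.45) on at least 2 arrays were tested (14002, covering 13296 genes) with limma 3.58.1 in R 4.3.3, in 1 fit of 3 group means, two-sided, adjusted by Benjamini-Hochberg over all of them. Errors of fold changes are standard errors of this fit. The cKO against both controls weights each control group equally. The script was tested on simulated data. Alternatives were other filters, scalings, variance models and array weights, and leaving out arrays. Each further gene was read by its probe set with the highest mean. Genes of the further lists with values given were drawn from the 4 with the smallest p in a comparison. Anxa1 is an exception, given as an Fpr2 ligand. A result of the ligand list is not reported here. The receptors, the lists and the alternatives were chosen with earlier results of these data known. Precision is limited by how few arrays there are. The pools are separate groups of mice per the design text.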

Additional observations from a re-analysis of the deposited data

How the results depend on the processing

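No receptor passed in the comparisons of the cKO under any of the alternatives: other filters, all probe sets, quantile or median scaling, other variance models, array weights, only the compared groups in the fit, and leaving out arrays. Between the controls the count of receptors called was 0, 1 with array weights, and 0 to 1 on leaving out each array, the call being Ltb4r1. Of 36 log2 fold changes, 30 kept their sign throughout. The 6 that reversed lay between -0.08 and 0.11 as reported. Cxcr2 against the flox control was -0.0061 with quantile normalization, -0.0111 without flox control 1 and cKO 1 together, and -0.0234 to 0.0533 on leaving out each array. Cxcr4 against the flox control was -0.0082 to 0.33 on leaving out each array. For the Cre control minus the flox control, Fpr2 was -0.0117 with arrays centred on their medians. On leaving out each array in that comparison Fpr2 was -0.019 to 0.0602, C5ar2 -0.0379 to 0.19, Ccr1 -0.18 to 0.0822 and Cmklr1 -0.24 to 0.0737.

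Counts of receptors without overlap under the other scalings were added after seeing the data. Against the flox control there were 3 with quantile normalization and 5 with median centring. Against both controls there were 3 with quantile normalization (C5ar2, Cmklr1 and Ccr1) and 4 with median centring (these and Fpr2). C5ar1 thus overlapped under both. Shares over all probe sets were not computed under these scalings, so the counts stand without a background. Each receptor had 1 probe set, so using every probe set of a receptor gives the same log2 fold changes. No paired analysis was possible because the labels' sample numbers do not recur across groups.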
